A study of Mus musculus with 6 samples.

Results

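The genes described here are the CREB3 family of transcription factors, Creb3, Creb3l1, Creb3l2, Creb3l3 and Creb3l4, together with Crebrf, a regulator of Creb3. The rule uses gene names alone, although the set was proposed with earlier results of these data known, and all 6 names were found among the 54532 genes of the deposited count table. Expression was measured by bulk RNA-seq of total RNA from 6 samples whose labels name NIT-1, an insulinoma line from mouse with which beta cells of the pancreas are modelled. The 3 EVs libraries came from cells given hucMSC-EVs (extracellular vesicles released by mesenchymal stem cells of human umbilical cord) for 16 h, and the 3 ERS libraries from cells given PBS for the same time. Cells of both groups then had Tm for 8 h, read here as tunicamycin, which blocks N-linked glycosylation and stresses the endoplasmic reticulum (ER). A label of the ERS samples calls them untreated, whereas the series' design text gives them PBS and Tm, and the design text was followed. By that text, none of the 6 libraries came from cells without Tm. The comparison is thus vesicles against PBS in cells that all had Tm, and whether Tm itself changed a gene was not measured. Separate cultures are not stated in the labels, so the p-values reflect no more than the variation among these 6 samples, possibly technical.

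CREB3 family proteins are made as precursors anchored in the ER membrane. When they reach the Golgi, the site-1 and site-2 proteases cut them, and the freed part, which carries a basic leucine zipper (bZIP), enters the nucleus and switches on genes. Atf6, the ATF6 sensor of the unfolded protein response, is activated by the same proteases. Creb3l1 (OASIS) is known from bone and glia, Creb3l2 (BBF2H7) from cartilage and other secretory cells, Creb3l3 (CREBH) from liver and intestine, and Creb3l4 from prostate and testis. Crebrf is a nuclear protein that promotes the loss of Creb3 protein. Gene counts show transcript levels and say nothing about cleavage of the proteins.

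The libraries held 28654248 to 32550268 counts, and 16844 genes were tested. A count of 0 allows up to 3 counts, at most 0.105 CPM (counts over library size, scaled to a fixed total), which covers counting error only. The identity of the cells was checked with markers. Of 10 beta-cell genes, 8 had at most 3 counts in every library and 7 had none, Ins2, Pdx1 and Nkx6-1 among them, so the beta-cell label was not borne out by these transcripts. Summed leukocyte markers were at 2.73 to 4.40 CPM in ERS and 4.42 to 6.49 in EVs, nearly all from Cd68, and the pan-leukocyte gene Ptprc had at most 4 counts. Summed acinar markers were at 23.7 to 30.0 CPM in ERS and 29.5 to 34.1 in EVs, all from Cela1, with the other 3 at 0 counts. Summed fibroblast markers were at 15.2 to 16.5 CPM in ERS and 14.9 to 18.5 in EVs, nearly all from Pdgfra, Col3a1 and Col1a1. The fibroblast genes Dcn, Lum and Col1a2 had at most 7, 2 and 12 counts in a library. The part of such cells in the results below was not tested. In a bulk sample fewer cells of a type and less RNA per cell cannot be told apart.

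The promoters of 4 genes are shown, those of Creb3 and Creb3l2 (lower in EVs), Creb3l3 (higher) and Crebrf (not called). Creb3l4, also not called, has RefSeq entries but is not shown. RefSeq entries (GRCm38.p6) were found for 5 of the 6 genes, all but Creb3l1. Each line gives the 250 bases before the RefSeq transcript start nearest to the gene's deposited 5′ end, 5′ to 3′ on the gene's strand. Capitals mark ACGTG, which is contained in the XBP1-type element TGACGTGG, TGACG, the CRE half-site, and CCAAT, the box bound by NF-Y, each on either strand. The windows are chr4:43562408-43562657 (plus strand) for Creb3, chr6:37442149-37442398 (minus) for Creb3l2, chr10:81098873-81099122 (minus) for Creb3l3 and chr17:26715400-26715649 (plus) for Crebrf.
Creb3: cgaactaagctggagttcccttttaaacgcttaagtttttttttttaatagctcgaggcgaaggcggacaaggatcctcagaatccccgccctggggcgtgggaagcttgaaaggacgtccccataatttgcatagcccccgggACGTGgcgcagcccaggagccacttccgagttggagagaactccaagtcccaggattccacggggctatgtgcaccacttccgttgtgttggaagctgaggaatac
Creb3l2: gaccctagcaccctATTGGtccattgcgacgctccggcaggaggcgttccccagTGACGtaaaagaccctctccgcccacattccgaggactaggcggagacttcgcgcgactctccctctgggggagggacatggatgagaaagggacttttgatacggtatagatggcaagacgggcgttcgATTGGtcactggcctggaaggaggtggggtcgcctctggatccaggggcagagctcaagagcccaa
Creb3l3: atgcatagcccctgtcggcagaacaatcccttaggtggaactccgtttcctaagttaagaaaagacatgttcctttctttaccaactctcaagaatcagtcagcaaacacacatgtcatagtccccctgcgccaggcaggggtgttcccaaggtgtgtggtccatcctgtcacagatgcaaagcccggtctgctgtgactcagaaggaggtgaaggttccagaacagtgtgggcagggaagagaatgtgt
Crebrf: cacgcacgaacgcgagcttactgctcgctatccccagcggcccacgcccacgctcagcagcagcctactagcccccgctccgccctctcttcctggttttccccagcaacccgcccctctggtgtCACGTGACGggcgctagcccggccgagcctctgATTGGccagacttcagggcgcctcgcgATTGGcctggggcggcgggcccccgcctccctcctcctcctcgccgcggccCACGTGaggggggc

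The windows differed in these letters. Creb3 held 1 ACGTG, whose first base lay 106 bases before the start, and neither TGACG nor CCAAT. Creb3l2 held 1 TGACG at 196 bases and 2 CCAAT matches on the opposite strand, at 236 and 66 bases, and no ACGTG. The Creb3 window lies inside the deposited gene, whose 5′ end is 326 bases upstream of the RefSeq start. Creb3l3 held none of the 3, while the window of its second RefSeq start (chr10:81092592-81092841) held 1 TGACG and 1 CCAAT. Crebrf held 4 ACGTG matches, which are 2 CACGTG palindromes each read on both strands, 1 TGACG that overlaps the upstream palindrome and 2 CCAAT. The nearest window of Creb3l4, not shown, held 2 CCAAT and neither ACGTG nor TGACG. In 32851 promoter windows of the same length ACGTG was found in 16.6%, TGACG in 17.8% and CCAAT in 33.8%. The ER stress element, CCAAT followed after 9 bases by CCACG (0.113% of windows), its second form, ATTGG followed after 1 base by CCACG (0.0304%), the XBP1-type element TGACGTGG (0.563%) and the full CRE TGACGTCA (1.55%) were in none of the 4 windows. A match is a description of letters, and its absence says only that these letters are not in this window.

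Of the 6 genes, 5 were expressed, with a mean of at least 1 CPM in one of the groups, and Creb3l4 was low, at 15 to 29 counts in a library. Creb3l3 reached 1 CPM in EVs alone, with means of 0.762 CPM in ERS and 2.59 in EVs. All 6 passed the filter on low counts and were tested. Creb3l2 and Creb3 were lower in EVs, Creb3l3 was higher, and Creb3l1, Creb3l4 and Crebrf were not called (edgeR quasi-likelihood test, Benjamini-Hochberg adjusted p under 0.05). In the whole comparison 47.4% of the tested genes were called, 22.6% higher and 24.7% lower, so that 3 of 6 is near the background. The median log2 fold change of the 6 was -0.11, against 0.01 over all tested genes.

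**Figure D1:**
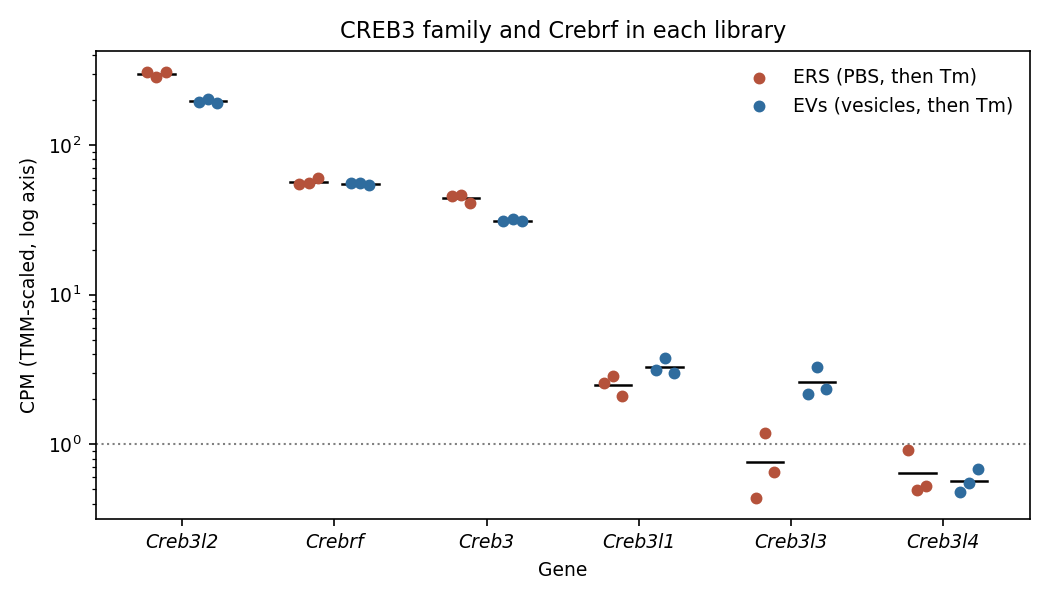
Each point is 1 library, with the TMM-scaled CPM on a log axis, the group mean as a black bar and 1 CPM as a dotted line. The ERS and EVs points of Creb3l2, Creb3, Creb3l1 and Creb3l3 lie apart, while those of Crebrf and Creb3l4 overlap.

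Creb3l2 (ENSMUSG00000038648, chromosome 6, 37327255 to 37442146, GRCm38, minus strand) was the most abundant member. This factor drives transport genes such as Sec23a in cartilage. Its level was 305.6, 285.5 and 307.0 CPM in ERS 1 to 3 and 195.0, 204.1 and 189.4 CPM in EVs 1 to 3. Every ERS library lay above every EVs library. The means were 299 ± 12 and 196 ± 7 CPM (SD, n = 3 each), a 1.53-fold lower level in EVs. The log2 fold change was -0.61 ± 0.04 (SE; adjusted p by edgeR = 1.46e-11), and 8.89% of the tested genes had a lower one.

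Creb3 (ENSMUSG00000028466, chromosome 4, 43562332 to 43567060, plus strand), also called Luman, gives its name to the family. Its level was 45.3, 46.2 and 41.2 CPM in ERS 1 to 3 and 30.8, 31.9 and 31.0 CPM in EVs 1 to 3. The groups did not overlap, as was the case for 54.5% of all tested genes. The means were 44.2 ± 2.7 and 31.3 ± 0.6 CPM (SD, n = 3 each), a 1.41-fold lower level, with a log2 fold change of -0.50 ± 0.07 (SE; adjusted p by edgeR = 9.70e-07). Of its 2372 exonic bases, 360 are shared with exons of Tln1 and 133 with exons of Gba2, both on the opposite strand, 20.8% in all. Whether the counting used strand is not given in the sources used here, which leaves reads in the shared bases uncertain. Tln1, the adhesion protein talin, had a log2 fold change of -0.14 ± 0.04 and Gba2, a glucosylceramidase, one of -0.20 ± 0.09 (SE), both closer to 0 than that of Creb3. Tln1 was far more abundant than Creb3, at 502 CPM in ERS and 456 in EVs, and Gba2 less so (26.5 and 23.0 CPM). The part of the Creb3 counts from shared bases was not measured, so its level, its fold change and its rank among genes carry this uncertainty. The other 5 genes share no exonic base with another annotated gene.

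Creb3l3 (ENSMUSG00000035041, chromosome 10, 81084324 to 81098874, minus strand) was the only member called higher in EVs. Its level was low, with 14, 36 and 21 counts in ERS 1 to 3 and 67, 95 and 75 counts in EVs 1 to 3. In CPM this was 0.440, 1.19 and 0.653 against 2.15, 3.28 and 2.33. All EVs libraries lay above all ERS libraries, and relative to their mean the replicates of each group spread more than those of Creb3l2. The means were 0.762 ± 0.388 and 2.59 ± 0.60 CPM (SD, n = 3 each). The log2 fold change was 1.76 ± 0.33 (SE; adjusted p by edgeR = 9.16e-05), a 3.39-fold higher level, with a 95% interval of 1.08 to 2.44 on the log2 scale. A higher log2 fold change was found in 0.712% of the tested genes.

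Creb3l1 (ENSMUSG00000027230, chromosome 2, 91982328 to 92024502, minus strand) activates collagen genes in osteoblasts. It had 81, 86 and 67 counts in ERS 1 to 3 and 97, 109 and 96 in EVs 1 to 3. Although the groups did not overlap, the difference did not pass the test. The means were 2.49 ± 0.39 and 3.28 ± 0.42 CPM (SD, n = 3 each) and the log2 fold change was 0.40 ± 0.21 (SE; adjusted p by edgeR = 0.130). The 95% interval ran from -0.04 to 0.83.

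Creb3l4 (ENSMUSG00000027938, chromosome 3, 90237500 to 90243512, minus strand) had 29, 15 and 17 counts in ERS 1 to 3 and 15, 16 and 22 in EVs 1 to 3. The groups overlapped, and the highest value was that of ERS 1. Its log2 fold change was -0.17 ± 0.44 (SE; adjusted p by edgeR = 0.774). The 95% interval, -1.07 to 0.73, leaves room for a change of either sign, and without ERS replicate 1 the sign turned (0.15).

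Crebrf (ENSMUSG00000048249, chromosome 17, 26715650 to 26776635, plus strand) was at 54.8, 55.5 and 60.5 CPM in ERS 1 to 3 and 55.4, 55.6 and 54.2 CPM in EVs 1 to 3. The values of the groups overlapped. The means were 57.0 ± 3.1 and 55.1 ± 0.7 CPM (SD, n = 3 each), with a log2 fold change of -0.05 ± 0.06 (SE; adjusted p by edgeR = 0.517). The 95% interval of -0.17 to 0.07 lies closer to 0 than those of Creb3 (-0.64 to -0.36) and Creb3l2 (-0.70 to -0.52) and overlaps neither.

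Levels of different genes were compared per length, as TPM, in which the deposited counts are scaled to gene length and then to a fixed total. In ERS the order was Creb3l2 (145.4 ± 7.7 TPM, SD, n = 3), Creb3 (65.9 ± 3.1), Crebrf (23.5 ± 1.6), Creb3l1 (3.38 ± 0.48), Creb3l4 (1.36 ± 0.49) and Creb3l3 (0.890 ± 0.443). Of neighbours in this order, Creb3l4 and Creb3l3 alone had overlapping values. In EVs the order was Creb3l2 (93.2 ± 3.6 TPM), Creb3 (45.6 ± 0.9), Crebrf (22.3 ± 0.3), Creb3l1 (4.37 ± 0.56), Creb3l3 (2.97 ± 0.70) and Creb3l4 (1.18 ± 0.21), and no neighbours overlapped. Creb3l3 was thus last in ERS and next to last in EVs.

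The summed TPM of the 6 genes was 233 to 244 in ERS and 165 to 176 in EVs. Creb3l2 supplied 60.4% ± 1.8 of this sum in ERS and 55.0% ± 0.4 in EVs (SD, n = 3 each). Creb3 supplied 27.4% ± 1.8 and 26.9% ± 0.5, ranges that overlapped. The share of Crebrf was 9.78% ± 0.58 in ERS and 13.1% ± 0.3 in EVs, while its own level differed little. The other members made up the small remainder, with Creb3l3 at 0.374% ± 0.196 and 1.74% ± 0.35. The TPM ratio of Creb3l2 to Creb3 was 2.01 to 2.43 in ERS and 1.99 to 2.08 in EVs, so the 2 genes kept overlapping ratios. The ratio of Creb3l2 to Crebrf was 5.96 to 6.56 in ERS and 4.11 to 4.32 in EVs, without overlap.

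**Figure D2:**
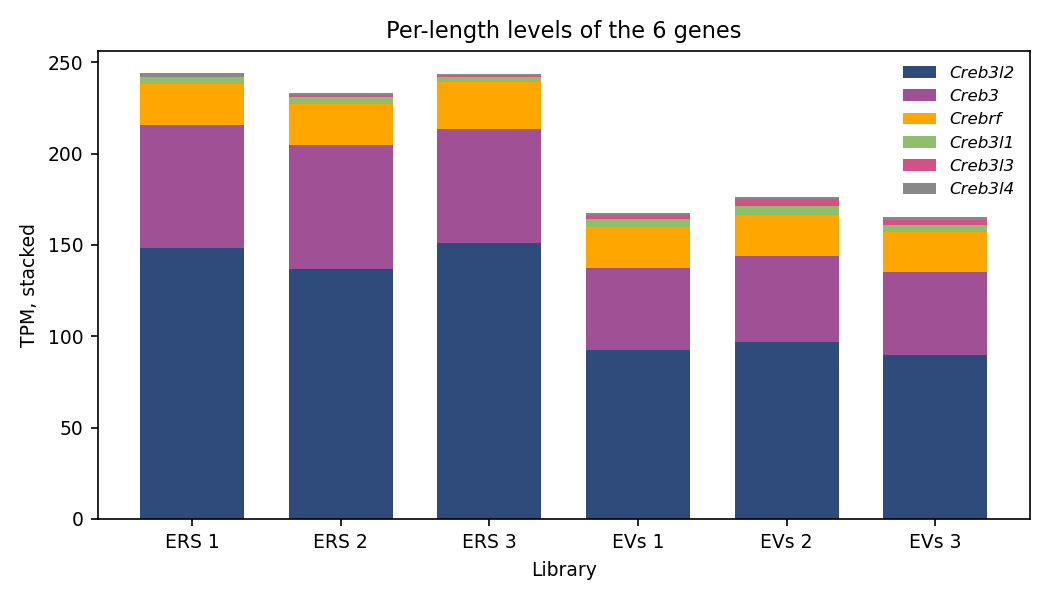
Bars stack the TPM of the 6 genes in each library. The EVs bars reach 165 to 176 TPM and the ERS bars 233 to 244, and most of the gap lies in the Creb3l2 and Creb3 segments.

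The deposited table marks 48 genes as bZIP factors, a list taken up after the table had been opened, and all members but Crebrf carry the mark. By mean TPM, Creb3l2 ranked 8 among the 48 in ERS and 8 in EVs, and Creb3 ranked 19 and 22. Creb3l3 moved from rank 40 to rank 35, close to Creb3l1 (35 and 32) and Creb3l4 (36 and 39). Of the 43 other bZIP genes 35 were tested, of which 9 rose, 13 fell and 13 were not called, with a median log2 fold change of -0.16. In total 62.9% of the 35 were called, beside 47.4% of all tested genes (22.6% higher and 24.7% lower). The stress factors Ddit3 (CHOP) and Xbp1 ranked above Creb3l2 in ERS, at 2 and 5, and below it in EVs, at 13 and 20. Nfil3 (6 in ERS and 9 in EVs) and Jdp2 (7 and 18) crossed it in the same way. Atf4 (1 and 1), Nfe2l1 (3 and 2) and Atf5 (4 and 4) ranked above Creb3l2 in both groups. Jun (9 and 3), Jund (10 and 6), Nfe2l2 (12 and 7) and Junb (15 and 5) crossed it the other way.

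**Figure D3:**
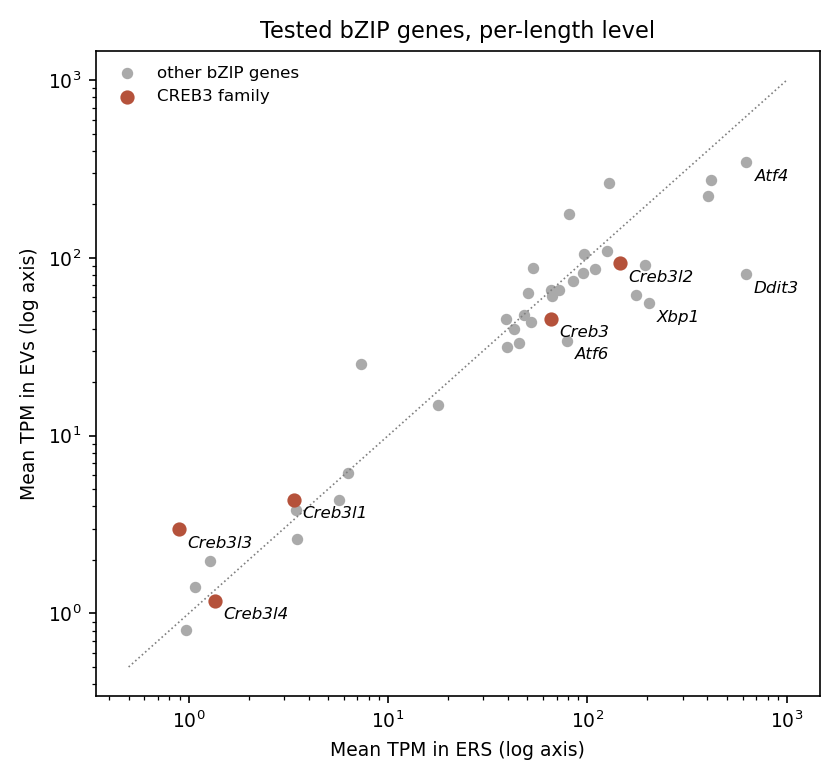
Mean TPM in ERS (x) and EVs (y), both on log axes, for the 40 tested bZIP genes, with equal levels on the dotted line. Creb3l2 (145.4 and 93.2 TPM) and Creb3 lie below the line, Creb3l3 (0.890 and 2.97 TPM) above it.

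The proteases that cut the family went opposite ways. Mbtps1, the site-1 protease, was at 242 ± 6 CPM in ERS and 318 ± 6 in EVs (SD, n = 3 each), with a log2 fold change of 0.40 ± 0.04 (SE; adjusted p by edgeR = 6.54e-09). Mbtps2, the site-2 protease, was slightly lower, with a log2 fold change of -0.17 (SE 0.04, adjusted p by edgeR = 0.00233). Of the 12 genes listed as proteases, partners and regulators, 10 were tested, of which Mbtps1 and Hcfc1 rose, 7 fell and Crebzf was not called, with a median log2 fold change of -0.74. Over all tested genes 22.6% rose and 24.7% fell, and this list was chosen with earlier results of these data known. Hcfc1, the host cell factor that binds Creb3, was 1.18-fold higher, and its relative Hcfc2 fell, from 46.0 ± 2.2 to 23.0 ± 1.6 CPM (SD, n = 3 each). Crebzf (Zhangfei), a bZIP partner of host cell factor, did not pass, at -0.08 ± 0.05 on the log2 scale (SE; adjusted p by edgeR = 0.164). The strongest falls on the list were in Sel1l (5.92-fold lower) and Syvn1 (4.97-fold), which form a ubiquitin ligase complex of ER-associated degradation, and in the stress pseudokinase Trib3 (4.44-fold). Cers6, a ceramide synthase named after its value was seen, was called at 6 to 18 counts in a library (log2 fold change -1.34 ± 0.54, SE, edgeR adjusted p = 0.0442), and the call was kept in 1 of 12 alternatives, DESeq2 size factors (adjusted p = 0.0447). Cers6 passed the filter on low counts through its ERS libraries alone. Its adjusted p was 0.0505 with library size alone, 0.114 with no filter, 0.0850 by DESeq2, 0.0503 by limma-voom, 0.0741 with the replicate number as a block and 0.0597 to 0.132 with any single library left out. Dcstamp and Tm4sf20 did not pass the filter, with at most 15 and 4 counts in a library. With no filter, Dcstamp (2, 0 and 0 counts in ERS 1 to 3 and 9, 6 and 15 in EVs 1 to 3) was called higher (adjusted p by edgeR = 0.00673) and Tm4sf20 was not (0.728).

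**Figure D4:**
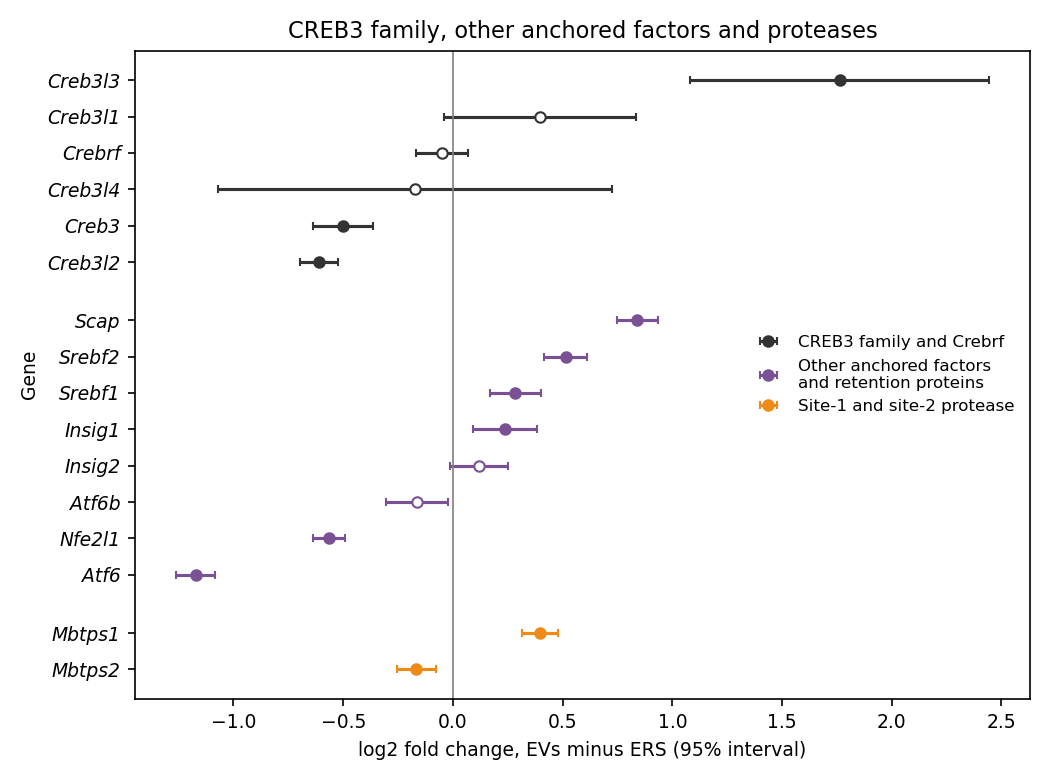
Log2 fold changes, EVs minus ERS, with 95% intervals. Filled points have an adjusted p under 0.05. Creb3 and Creb3l2 lie between Atf6 (-1.17) and 0, and Creb3l3 lies at 1.76.

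The next list holds 5 other transcription factors anchored in membranes, with Scap, Insig1 and Insig2, which escort or retain the Srebf proteins in the ER. Atf6 was at 206 ± 1 CPM in ERS and 91.4 ± 2.1 in EVs (SD, n = 3 each), 2.25-fold lower, a log2 fold change of -1.17 ± 0.04 (SE; adjusted p by edgeR = 4.64e-17). Its 95% interval, -1.26 to -1.08, overlaps neither that of Creb3 nor that of Creb3l2. Atf6b, its paralog, did not pass, at -0.16 ± 0.07 on the log2 scale (SE; adjusted p by edgeR = 0.0519), and it passed with no filter (adjusted p = 0.0124), with the replicate number as a block (0.0446), and without ERS replicate 3 (0.00858) or EVs replicate 2 (0.0199). Nfe2l1, the factor that raises proteasome genes, was 1.48-fold lower. Srebf2, which drives cholesterol synthesis, was 1.43-fold higher, and Scap, which escorts it from the ER, 1.79-fold higher. Of the 5 factors Srebf1 and Srebf2 rose, Atf6 and Nfe2l1 fell and Atf6b was not called, with a median log2 fold change of -0.16. Of the 3 escort and retention proteins Scap and Insig1 rose and Insig2 was not called. This division of the list was made after the values were seen, and the median of all 8 genes was 0.18. Of the 8, 6 were called, beside 47.4% of all tested genes.

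CREB and ATF1 factors without a membrane anchor, with their coactivators, were taken as a second set of relatives. Of 11 genes 5 fell, Creb5 rose and 5 were not called, so 6 of 11 were called, beside 47.4% of all tested genes, with a median log2 fold change of -0.11. Creb1, the cAMP-responsive CREB, did not pass, at -0.07 ± 0.05 on the log2 scale (SE; adjusted p by edgeR = 0.222). Atf1, Atf2 and Atf7 fell by 0.29, 0.22 and 0.29 on the log2 scale. Crtc3, a CREB coactivator, was 1.59-fold lower. The call of Creb5, a gene named after its value was seen, was at the edge (log2 fold change 0.19 ± 0.08, SE, edgeR adjusted p = 0.0481). Leaving out ERS replicate 1 or 2 or any EVs replicate ended it, with adjusted p from 0.0678 to 0.215.

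Genes described elsewhere as targets of Creb3, Creb3l1 or Creb3l2 were lower where they could be tested. Their lists were chosen with earlier results of these data known. Several of these genes are also known targets of other ER stress factors, and which factor acted was not measured. Of the 3 Creb3 targets, Herpud1, an organiser of ER-associated degradation, was 9.67-fold lower and Edem1, which hands misfolded glycoproteins to degradation, 4.12-fold lower. Arf4, a Golgi GTPase of the Golgi stress response, was at 323 ± 7 CPM in ERS and 261 ± 6 in EVs (SD, n = 3 each), with a log2 fold change of -0.31 ± 0.04 (SE; adjusted p by edgeR = 4.55e-07). The median of the 3 was -2.04, and all 3 were called lower, beside 24.7% of all tested genes.

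Of 9 genes described as targets of Creb3l1 or Creb3l2, 6 were tested and all 6 fell, with a median log2 fold change of -0.81. Over all tested genes 24.7% fell, and this list too was chosen with earlier results known. Sec23a, a coat protein of vesicles leaving the ER, was at 103 ± 3 CPM in ERS and 60.0 ± 1.3 in EVs, and Sec24d, its partner in cargo choice, at 188 ± 2 and 69.3 ± 3.4 CPM (SD, n = 3 each). These were 1.72-fold and 2.72-fold lower. Atf5, a stress-induced bZIP factor, was 1.78-fold lower, and Hspa5, the ER chaperone BiP, 10.5-fold lower. Col1a1, a collagen gene that also marks fibroblasts, and the cell cycle inhibitor gene Cdkn1a, both named after their values were seen, had log2 fold changes of -0.77 and -0.23. The fibroblast marker Col3a1 had 101 to 119 counts in ERS and 173 to 223 in EVs, the opposite direction to Col1a1.

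Liver targets of Creb3l3 were almost absent in both groups, although its own transcript was higher in EVs. Of 11 genes, 9 had at most 3 counts in every library, among them the hepcidin gene Hamp, the acute phase genes Crp and Apcs and the apolipoprotein gene Apoa4, each with 0 counts in all 6 libraries. Apoa5 had at most 4 counts. Fgf21, a stress hormone gene that also answers to ATF4, was the only one tested. It had 31, 26 and 34 counts in ERS 1 to 3 and 0, 8 and 6 in EVs 1 to 3. It thus passed the filter on low counts through its ERS libraries alone. A filter passed this way favours genes lower in EVs, so this direction says little about the list. The log2 fold change of Fgf21 was -2.63 (SE 0.59, adjusted p by edgeR = 6.18e-04), opposite to Creb3l3. The size moved with single EVs libraries, at 6.20-fold lower with all 6 libraries, 4.16-fold without EVs replicate 1 and 9.89-fold without EVs replicate 2, and 10.1-fold by limma-voom, called in each.

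**Figure D5:**
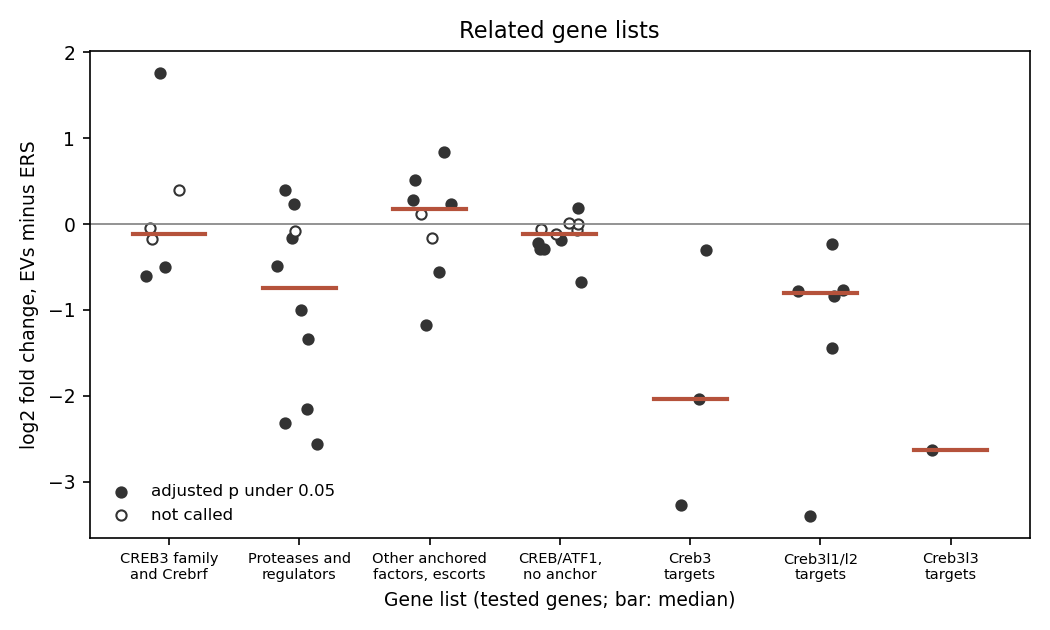
Each point is a tested gene, placed by its log2 fold change (EVs minus ERS) in its list, with the list's median as a bar. All tested targets lie below 0, although the only tested Creb3l3 target, Fgf21, passed the filter on low counts through its ERS libraries alone. The family and the list of other anchored factors with their escort and retention proteins lie on both sides of 0.

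For each member the genes with the most similar profile were sought over the 6 libraries, by Euclidean distance between log2 CPM values centred on each gene's mean, among 12205 protein-coding genes. The measure takes in both the difference between the 2 groups and the deviations of single libraries. Nearest to Creb3l2 were Fndc3b (distance 0.0354), Fer and N4bp2l1, with log2 fold changes of -0.62, -0.59 and -0.58. Nearest to Creb3 were Gpsm2 (0.0370), Cept1 and Rilpl1, with -0.53, -0.50 and -0.46. Crebrf had Parp4 (0.0356), Rbms1 and Usp9x as its nearest, none of them called. The low members had looser neighbours. Those of Creb3l3 were Bpifb4 (0.790), Ly6a and Serpinb1a, with log2 fold changes of 1.34, 1.49 and 1.44. Those of Creb3l1 were Cyp2t4 (0.167), Dctpp1 and Gpr157, and those of Creb3l4 were Ubxn6 (0.239), Tmem79 and Atp10b.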

How the data were processed

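RNA was sequenced from 3 EVs and 3 ERS samples. Per the labels' protocols, adaptors were removed and reads aligned with HISAT2 2.2.1, and the submitters' processing notes name featureCounts 2.0.6 and the build mm39. The authors deposited unnormalized read counts of each gene, and as other values the gene length, start and end in bases. Of 54495 gene IDs shared with GENCODE M21, 53585 (98.3%) had the same start and end there, so coordinates are read as GRCm38. The treatment of reads with several positions is not given in the sources used here.

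Libraries of 1 group differed by more than sampling noise (mean chi-square per gene 3.59 to 7.22) and were kept as separate samples. EVs was compared with ERS by edgeR 4.0.16 in R 4.3.3 (TMM factors, filterByExpr, quasi-likelihood F test, two-sided, Benjamini-Hochberg over 16844 genes). CPM values of single genes are TMM-scaled, marker sums use plain library size, and TPM uses the deposited counts and gene lengths, which equal the summed exon lengths of GENCODE M21 for the 6 members. The SE is the absolute log2 fold change divided by the square root of F. The test was tried on simulated counts.

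The members and lists were chosen with earlier results of these data known. The rule named all members, up to 4 genes of each list by smallest p, 10 further genes at any value (Atf6, Atf6b, Mbtps1, Mbtps2, Crebzf, Hcfc1, Arf4, Sec23a, Sec24d, Creb1), and the 3 nearest profiles of each member. Others are named because a count was small or for their level. Alternatives were scaling by DESeq2's size factors or by library size alone, testing without a filter or with 1 CPM in 3 libraries, DESeq2 1.42.0, limma-voom (limma 3.58.1), the replicate number as a block, each library left out, an adjusted p under 0.01, and shares of CPM.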

Additional observations from a re-analysis of the deposited data

How the results depend on the processing

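Creb3, Creb3l2 and Creb3l3 kept their direction and their call under all 13 alternatives, at log2 fold changes of -0.55 to -0.46, -0.65 to -0.57 and 1.48 to 2.22. Creb3l1 and Crebrf stayed uncalled in all 13, with adjusted p from 0.0937 to 0.369 and from 0.322 to 0.941. Creb3l4 was not tested with 1 CPM in 3 libraries and was uncalled in the other 12. Its log2 fold change ran from -0.34 to 0.15 when single libraries were left out, positive without ERS replicate 1. Among genes not called, Atp10b turned positive with library size alone (0.0098) and with limma-voom (0.0018), and Rbms1 with library size alone (0.0063). With single libraries left out, Atp10b ranged from -0.16 to 0.22, Rbms1 from -0.073 to 0.010 and Ubxn6 from -0.27 to 0.083. The cause was not tested. Same-numbered samples did not deviate together (r of -0.04, 0.02 and -0.01 over genes), and r of the other pairs ran from -0.03 to 0.04. With 3 libraries in a group this cannot settle whether same-numbered samples were paired, which the labels do not state. With the replicate number as a block, 3679 genes were higher and 4058 lower, against 3808 and 4168, and of the CREB and ATF1 genes without an anchor 0 were called higher. That count was also 0 with no filter, and 0 to 1 with single libraries left out. With 1 CPM in 3 libraries 0 liver targets of Creb3l3 were called, since Fgf21 was not tested there. By CPM without length, the shares in ERS and EVs were 74.0% and 67.9% for Creb3l2, 10.9% and 10.8% for Creb3, and 14.1% and 19.1% for Crebrf. They were 0.618% and 1.13% for Creb3l1, 0.891% for Creb3l3 in EVs, and 0.159% and 0.199% for Creb3l4. Crebrf, whose summed exon length is the largest of the 6 (8564 bases), thus passed Creb3. Of the 6 members Creb3l4, with at most 29 counts, had the largest SE (0.44).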
